A study of Mus musculus with 12 samples.

Results

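The response of lungs without Nrf2 to 2 h of mechanical ventilation at a high tidal volume was followed on 6 of the 12 arrays of the study. The 6 arrays were taken by their labels: 3 hold left lung lobes of Nrf2-/- mice of the CD-1/ICR strain ventilated at 30 ml/kg (HVT), and 3 hold left lobes of Nrf2-/- mice that breathed on their own for the same time (SpV, the controls). The other 6 arrays hold lungs of Nrf2+/+ mice of that strain under both kinds of breathing, again 3 arrays a group, and served to compare the responses of the genotypes; 1 of them, wild-type SpV array 1, is labelled as whole lung. Total RNA was measured on Affymetrix Murine Genome 430A arrays, short-probe arrays read in 1 colour. Age and sex of the mice, and which part of the gene was deleted, are not given, and the arrays are not stated to come from separate animals, so p-values cover the spread among these samples alone, and that spread may be technical.

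Nrf2, the product of Nfe2l2, is a transcription factor that is kept low by KEAP1 and, when oxidants or electrophiles disarm KEAP1, switches on genes of glutathione synthesis, thioredoxin recycling and detoxification. A ventilator that delivers large breaths stretches the alveolar wall and its capillaries, and injury of the lung by ventilators is known for leaking barriers, early response genes, cytokines and recruitment of neutrophils. The study's title links this injury to oxidative stress, and the comparison asks what ventilation changes in a lung that cannot mount the Nrf2 response.

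The 6 arrays were not of equal quality. Knockout SpV array 1 was dim and its RNA degraded: its trimmed mean signal before scaling was 73.9 and the signal at the 3' end of the beta-actin control was 8.76 times that at the 5' end. Knockout SpV arrays 2 and 3 were the brightest of all 12 arrays, at 469 and 446, and had the lowest actin ratios, 1.39 and 1.52. The knockout HVT arrays lay between, at 194, 247 and 182 with actin ratios of 3.10, 2.21 and 3.02. Brightness and integrity therefore moved with ventilation among the 5 arrays left when SpV array 1 is put aside, and ran the other way between that array and the HVT arrays. Signals below were scaled, quantile normalized over 12 arrays and are given in array order 1, 2, 3. Differences are log2(HVT) minus log2(SpV) ± SE.

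**Figure D1:**
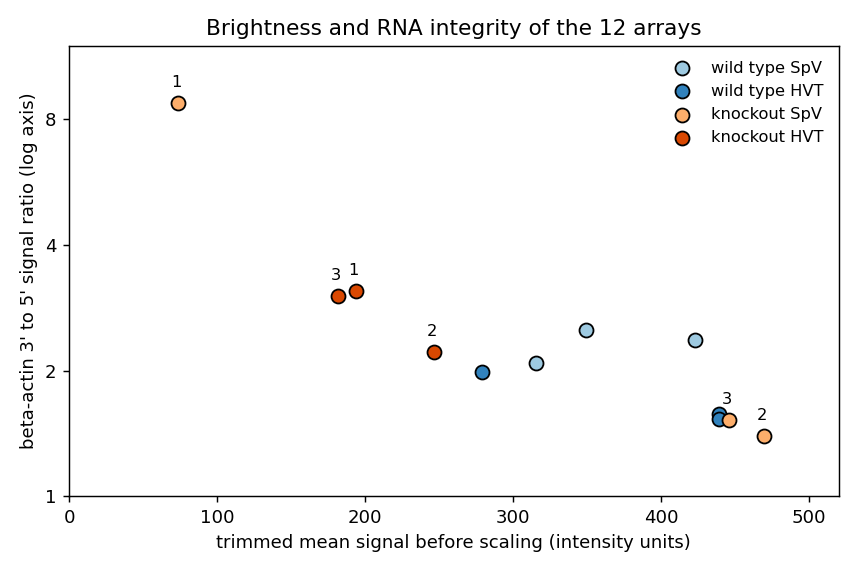
Each point is 1 array, placed by its trimmed mean signal before scaling (intensity units) and by the 3' to 5' ratio of its beta-actin control (log axis), and coloured by group; the numbers name the knockout arrays. Knockout SpV array 1 stands apart at 73.9 and 8.76, and knockout SpV arrays 2 and 3 lie at the bright end with ratios of 1.39 and 1.52.

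With all 12 arrays in the limma fit, 0 of 9333 genes (0%) passed an adjusted p under 0.05 for ventilation in knockout lung, and 991 (10.6%) had an unadjusted p under 0.05. Without knockout SpV array 1 the same fit called 599 genes (6.42%), of which 204 were higher (2.19%) and 395 lower (4.23%) after ventilation. The fit with all arrays holds the same 11 arrays and is no separate check of these calls. Of the 599 genes, 592 had the same direction with all arrays, and 251 had an unadjusted p under 0.05 there. For 142 of them (1.52% of genes; 54 or 0.579% higher and 88 or 0.943% lower) all 3 HVT arrays lay beyond all 3 SpV arrays, array 1 included. Over all genes 6.76% lay apart in this way with HVT higher and 7.53% with HVT lower, and in wild-type lungs 7.9% and 9.15% did so. Below, "rose" and "fell" are used only of genes called without SpV array 1, and "apart" of genes whose 3 and 3 arrays do not overlap. Every count of list members below is to be read beside the shares over all genes. These are 2.19% for rose, 4.23% for fell, and 6.76% (HVT higher) and 7.53% (HVT lower) for apart. The smallest p that an exact permutation test can give is 0.1 for 3 arrays against 3 and 0.2 for 3 against 2, so none could pass for a single gene. All directions are relative to the scaled arrays. Without scaling the median gene stood at -1.03 in the comparison without array 1, and the rises given below for Zfp503, Gsto1, Cavin2, Polr3a, Vldlr, Atp1b1, Cdh1, Per2, Psma7 and Mgst1 then stood below 0, as did Myl7, Muc5b, Gabrp, Uqcrfs1, Cycs, Maff, Eppk1, Noct, Arid5a, Ltf and Ms4a1, while Gsta2 was at 0.00.

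Brightness and actin ratio were also entered as covariates. On all 12 arrays the actin ratio as covariate gave 54 calls (0.579% of genes; 22 higher, 32 lower) and brightness gave 34 (0.364%; 21 higher, 13 lower), and 26 genes (0.279%) were called in both of these fits. Of these 26, 20 were also called without SpV array 1 and 18 of the 20 were apart. In these 12-array fits SpV array 1 lay on the other side of the HVT arrays from SpV arrays 2 and 3. Calls with a covariate, here and below, are from 12 arrays and therefore cannot separate quality from ventilation. On the 11 arrays without SpV array 1, either covariate left 0 calls (0%; 599 without a covariate), with 841 genes (9.01%) at an unadjusted p under 0.05 for the actin ratio and 760 (8.14%) for brightness. Single arrays also weighed on the count: it was 21 when SpV array 2 was left out as well, 137 without SpV array 3 and 285 without HVT array 3. Sizes changed too with the actin ratio and brightness on 11 arrays, where 588 and 584 of the 599 genes kept their direction. Mfap4 went from -3.26 to -0.72 and -0.39, and Aqp1 from -1.30 to -0.26 and -0.49. Cxcl12 went from -0.96 to -0.097 and -0.51, Hcar2 from -2.78 to -0.52 and -1.92, and Apoc1 from -1.06 to 0.18 and 0.017. Others moved less or grew, such as Itga8 (-1.95 and -1.75) and Ttpa (3.26 and 2.91). The targeted gene was low on all 6 knockout arrays, with Nfe2l2 at 44.8, 36.2 and 42.6 in SpV and 61.3, 36.6 and 42.3 in HVT lungs against 2144 to 3298 on the wild-type arrays.

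Neutrophil genes were the group with the lowest median. Of 15 measured neutrophil markers, 11 fell, 0 rose and 14 were lower in HVT lungs, and 8 were apart, where 4.23% of all genes fell and 7.53% were apart in that direction. Their median difference was -1.33 with all arrays and -1.83 without SpV array 1, against 0.00 and 0.02 over all genes. In bulk tissue, fewer cells of a type and less RNA per cell cannot be told apart. S100a8, a subunit of the calprotectin that fills the neutrophil cytosol, read 2158, 10586 and 5059 on the SpV arrays and 842, 778 and 937 on the HVT arrays. All HVT arrays were low and close together, while the SpV arrays spread widely and the degraded array was the lowest of them. The difference was -2.50 ± 0.47 with all arrays (adjusted p = 0.202) and -3.04 ± 0.36 without SpV array 1 (adjusted p = 0.00183).

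Its partner S100a9 followed at 2178, 7799 and 3715 in SpV and 675, 797 and 1251 in HVT lungs, again apart, and fell by 2.57 ± 0.42 (adjusted p = 0.00693). Mmp8, the neutrophil collagenase, read 69.6, 510.0 and 357 and 57.0, 42.5 and 47.9. Its HVT arrays sat near the floor and only just below SpV array 1, and the difference was -1.98 ± 0.54 with all arrays and -2.80 ± 0.33 without array 1 (adjusted p = 0.00181). With the actin ratio and brightness as covariates on the 11 arrays, S100a8 stood at -2.79 and -2.60 (limma adjusted p = 0.262 and 0.428). Mmp8 stood at -2.89 and -2.85 there (limma adjusted p = 0.212 and 0.366), so neither was called. On 12 arrays S100a8 and Mmp8 were called with either covariate. They were at -2.46 and -1.94 with the actin ratio (adjusted p = 0.0129 and 0.0303) and at -2.32 and -1.76 with brightness (adjusted p = 0.0277 and 0.0445). Both remained called in all 11 fits that left out 1 more array.

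Other neutrophil genes ran alongside. Clec4d, a lectin receptor of myeloid cells, read 238, 1335 and 979 in SpV and 178, 104 and 199 in HVT lungs, which is apart, and fell (-2.78 ± 0.44, adjusted p = 0.00632). Camp, the cathelicidin of secondary granules, was weak throughout, at 87.7, 168 and 116 against 4.61, 12.4 and 9.05, and fell by 2.67 ± 0.71 (adjusted p = 0.0436). Csf3r, the receptor for the growth factor G-CSF, overlapped only through SpV array 1, at 231, 1293 and 926 against 223, 202 and 298, and fell (-2.14 ± 0.31, adjusted p = 0.00354; -1.41 with array 1). The granule gene Ltf did not go with them: it read 971, 1607 and 2165 and 4090.0, 1798 and 1396, a difference of 0.22 ± 0.41 (0.53 with array 1) that did not pass. The high end of the contrast was in the controls, since the mean log2 signal of the list, each gene set against its own mean over 12 arrays, was -0.15, 1.37 and 0.95 on the knockout SpV arrays and -0.56, -0.86 and -0.42 on the HVT arrays, with wild-type arrays between -0.44 and 0.30. The response differed from wild type for 5 of the 15 genes by the interaction term without SpV array 1 (Mmp8, S100a8, Csf3r, Lcn2 and Clec4d, all lower in knockout); over all genes 0.761% were called in that direction. With all arrays no interaction passed (0%), and 456 genes (4.89%) were under 0.05 before adjustment.

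**Figure D2:**
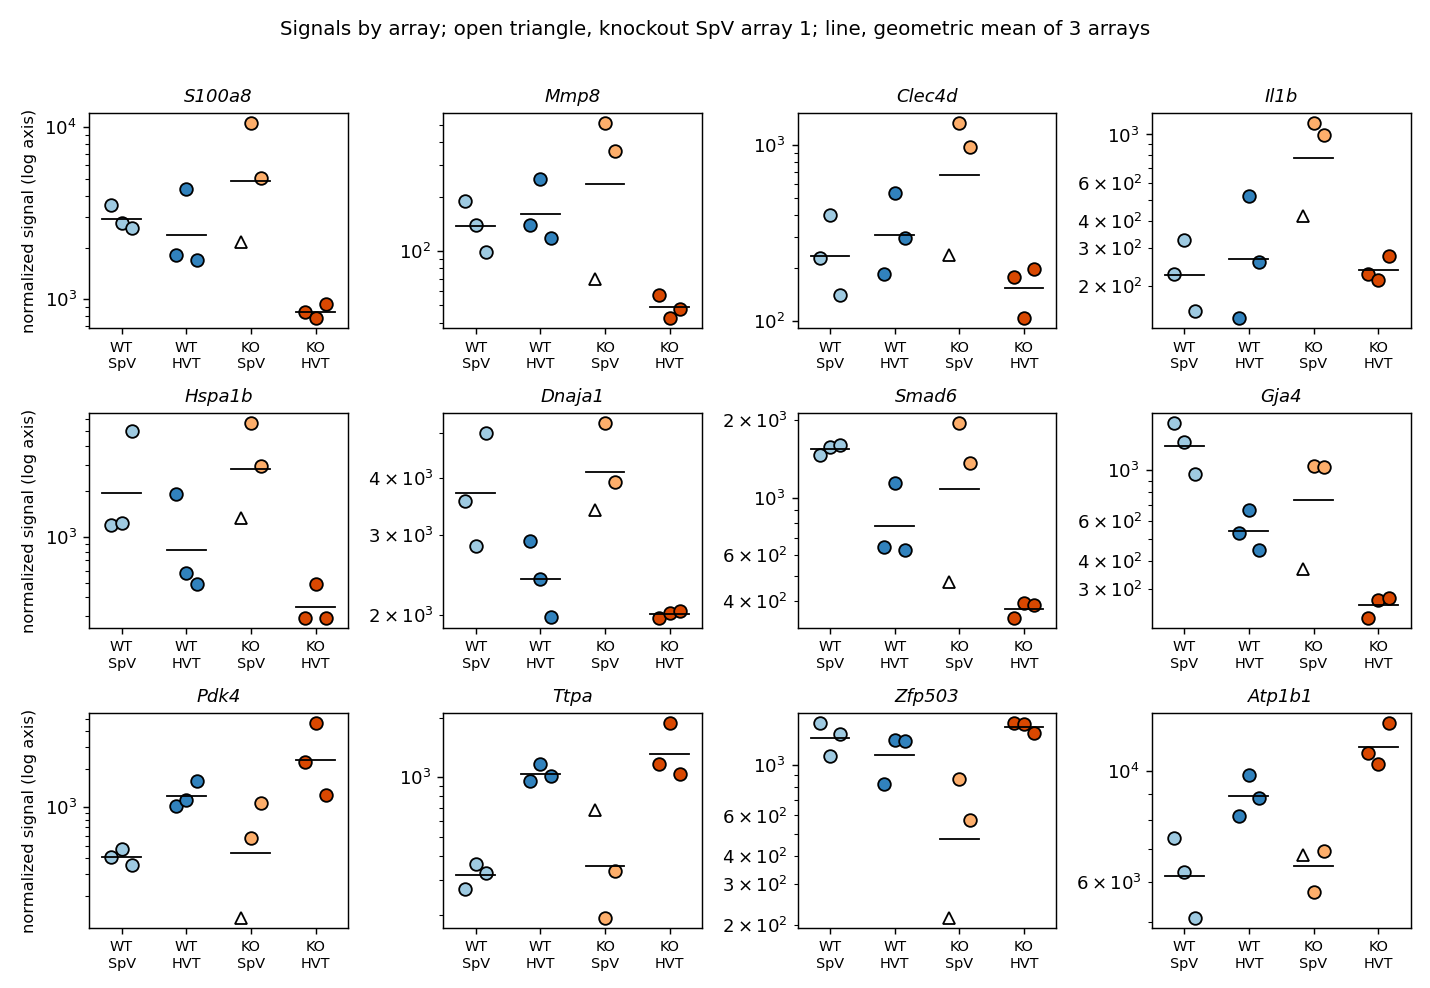
Normalized signal (log axis) of 12 genes on every array, by group; the open triangle is knockout SpV array 1 and the line the geometric mean of 3 arrays. In each panel the 3 knockout HVT arrays lie beyond the 3 knockout SpV arrays, below them for the first 8 genes (S100a8 to Gja4) and above them for Pdk4, Ttpa, Zfp503 and Atp1b1.

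Il1b, which encodes the cytokine interleukin-1 beta, was lower too. It read 421, 1129 and 989.8 in SpV and 227, 214 and 276 in HVT lungs, apart, and fell by 2.10 ± 0.41 (adjusted p = 0.0130). Of the 10 measured acute cytokines and chemokines, 3 fell and 0 rose, with a median of -0.20 with all arrays and -0.078 without array 1. Cxcl1, which draws neutrophils, was at 9.96, 1431 and 433 in SpV and 101, 155 and 122 in HVT lungs, so that the HVT arrays lay between the degraded array and the other two; it fell only without array 1 (-2.54 ± 0.47, adjusted p = 0.0111; -0.87 ± 1.03 with it). The stromal chemokine Cxcl12 fell by 0.96 ± 0.26 (adjusted p = 0.0443; -0.55 with array 1). Among 16 genes of NF-kB feedback and vascular adhesion, 4 fell and 0 rose (median -0.25 and -0.48). They were Birc3, an inhibitor of apoptosis (-1.69 ± 0.33, and -1.28 with array 1), the NF-kB partner Bcl3 (-1.33 ± 0.32 and -0.90), the leukocyte ligand Icam1 (-1.01 ± 0.24 and -0.26) and Relb (-0.81 ± 0.22 and -0.49), and each read lower on SpV array 1 than on at least 1 HVT array. The other probe set of Birc3 stood at -0.22 without array 1 and 0.04 with it.

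The macrophage and monocyte list had 8 of 14 members that fell (57.1%, against 4.23% of all genes) and 0 that rose, with medians of -0.33 and -0.76. Only 1 member was apart, where 7.53% of all genes were apart with HVT lower. That member was Cebpa, a transcription factor of myeloid and alveolar type II cells, which read 2899, 3161 and 3444 in SpV and 2016, 1614 and 1911 in HVT lungs. Its difference was -0.78 ± 0.13 with all arrays and -0.83 ± 0.14 without array 1 (adjusted p = 0.00693), and it was called with either quality covariate. Itgax, the integrin CD11c of alveolar macrophages and dendritic cells, read 342, 853 and 904 and 298, 313 and 399 and fell by 1.36 ± 0.16 (adjusted p = 0.00181; -0.91 with array 1). Mrc1, the mannose receptor, shows how far array 1 could carry a value: at 135, 1006 and 958 and 552, 586 and 526 it fell without that array (-0.81 ± 0.15, adjusted p = 0.0101) and stood at 0.10 ± 0.53 with it, a sign that turned with trimmed mean scaling, equal medians or no scaling.

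Lymphoid lists held 1 call, an antibody gene. Of 12 T and NK cell markers 0 were called (medians -0.35 and -0.47), with Klrd1 at -0.51 ± 0.21 and Nkg7 at -0.63 ± 0.31 with all arrays. Of 12 B cell markers only Jchain, the joining chain of IgA and IgM, was called. It read 451, 6756 and 6802 in SpV and 1215, 1134 and 593 in HVT lungs against 290 to 462 on the wild-type arrays, so SpV arrays 2 and 3 stood far above every other array. It fell by 2.81 ± 0.27 without array 1 (adjusted p = 9.06e-04), in all 11 further leave-outs, but not with array 1 (-1.55 ± 0.77, adjusted p = 0.512). Igha, the IgA heavy chain, was looked at after this value was seen; it read 191, 6377 and 5688 and 1101, 661 and 283 and fell by 3.29 ± 0.43 (adjusted p = 0.00251; -1.69 with array 1). The B cell surface genes Cd79a and Ms4a1 differed by -0.43 ± 0.28 and 0.05 ± 0.28 (-0.23 and 0.13 with array 1), which did not pass.

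Heat shock genes were lower in ventilated knockout lungs. Of 22 measured chaperones, 6 fell (27.3%) and 0 rose, and 9 were apart with HVT lower and 1 with HVT higher. Over all genes 4.23% fell, 7.53% were apart with HVT lower and 6.76% with HVT higher. The median difference was -0.35 with all arrays and -0.53 without array 1. In wild-type lungs it was -0.22, with 14 of 22 lower, and the interaction called 1 of 22 genes, Dnajb4. The genes that lead this group are known targets of the heat shock factor, which binds inverted GAA units. The 250 bases before the start of 3 of them, from RefSeq on GRCm38.p6, are shown 5′ to 3′ with matches to GAANNTTC or TTCNNGAA, motifs that read the same on both strands and can overlap, in capitals. Hspa1b lies on the minus strand at chr17:34959239-34959488, Dnaja1 on the plus strand at chr4:40722218-40722467 and Hsph1 on the minus strand at chr5:149636316-149636565. Dnaja1 has 3 listed starts, and the windows of the other 2 held neither motif.
Hspa1b: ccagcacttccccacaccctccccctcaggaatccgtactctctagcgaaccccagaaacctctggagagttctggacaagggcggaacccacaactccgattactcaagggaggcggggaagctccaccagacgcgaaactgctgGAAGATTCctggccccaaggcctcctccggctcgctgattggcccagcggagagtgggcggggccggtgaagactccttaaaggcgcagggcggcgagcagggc
Dnaja1: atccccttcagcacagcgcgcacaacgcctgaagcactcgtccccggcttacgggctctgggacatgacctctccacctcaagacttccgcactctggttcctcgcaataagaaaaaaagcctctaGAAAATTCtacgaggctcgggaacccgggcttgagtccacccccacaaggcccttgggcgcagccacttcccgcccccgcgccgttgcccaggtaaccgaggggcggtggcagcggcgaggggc
Hsph1: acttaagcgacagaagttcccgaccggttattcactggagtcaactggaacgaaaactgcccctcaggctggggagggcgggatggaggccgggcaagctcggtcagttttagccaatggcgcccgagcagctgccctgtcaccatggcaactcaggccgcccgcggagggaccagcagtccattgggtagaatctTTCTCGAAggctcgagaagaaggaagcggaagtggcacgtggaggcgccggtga

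GAANNTTC stood in the 300-base window (250 before to 50 after a start) of 12 of the 19 measured chaperones with a promoter in the table, 63.2%, and in 7.86% of all 32851 windows and 6.99% of 7520 tested genes. TTCNNGAA, searched after the data had been seen, stood in 5 of 19, 26.3%, and in 8.52% of all windows. Chaperones that fell held GAANNTTC in 3 of 5 cases and the others in 9 of 14, so the motif did not divide the list. A match describes letters, not binding.

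Hspa1b, a stress-induced HSP70, read 1337, 5643 and 2937 in SpV and 293, 489 and 292 in HVT lungs. The groups were apart, and the 3 SpV arrays themselves spread over a wide range. The difference was -2.96 ± 0.64 with all arrays (adjusted p = 0.202) and -3.49 ± 0.63 without array 1 (adjusted p = 0.0101), the largest fall of the genes that were called and apart. The other 2 probe sets of Hspa1b gave -2.96 and -2.75 with all arrays, and its near-identical neighbour Hspa1a stood at -2.70 ± 0.78 (adjusted p = 0.0568), which did not pass; probes of these copies may share signal. Dnaja1, an HSP40 co-chaperone, read 3391, 5267 and 3916 against very even HVT values of 1969, 2015 and 2041, and fell by 1.16 ± 0.22 (adjusted p = 0.0128; -1.03 ± 0.22 with array 1). Hsph1, an HSP70 nucleotide exchange factor, read 2279, 5239 and 3757 and 1454, 1929 and 1597, apart, and fell by 1.41 ± 0.28 (adjusted p = 0.0147). With the actin ratio as covariate on 12 arrays the list had 2 calls and a median of -0.33, and with brightness 0 calls and -0.21.

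Chaperones of the endoplasmic reticulum were mixed. Of 20 genes of the ER stress and amino acid response, 5 fell and 1 rose (medians -0.17 and -0.32). Hspa5, the ER HSP70, fell by 0.69 ± 0.14 (limma adjusted p = 0.0141) and stood at -0.45 with array 1. The other probe set of Hspa5 stood at only -0.15 without array 1 and -0.13 with it. Manf, a secreted ER protein, fell by 0.85 ± 0.17 (limma adjusted p = 0.0144) and stood at -0.48 with array 1. For both genes SpV array 1 lay below the HVT arrays. Vldlr, a lipoprotein receptor induced in this response, read 2018, 1572 and 1765 in SpV and 2572, 2929 and 2890.3 in HVT lungs, apart, and rose by 0.74 ± 0.13 (adjusted p = 0.0101; 0.65 ± 0.14 with array 1); its other 2 probe sets stood at 0.02 and 0.39 without array 1. Hyou1, a large ER chaperone outside the list that was picked after its values were seen, read 2310.4, 1234 and 1183 and 3122, 3003 and 2644 and also rose while apart (1.26 ± 0.19, adjusted p = 0.00508), but its other probe set stood at -0.03.

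Endothelial genes were broadly lower. Of 24 measured endothelial markers 11 fell (45.8%, against 4.23% of all genes) and 0 rose. The median difference was -0.57 with all arrays and -1.04 without array 1. Only Eng and Egfl7 of the 24 were apart, and the degraded array was the lowest of the 6 in the mean of the list: this mean log2 signal of the list was -1.07, 0.40 and 0.097 on the SpV arrays and -0.63, -0.64 and -0.84 on the HVT arrays. With covariates on 12 arrays the median was -0.54 (actin ratio) and -0.40 (brightness). In wild-type lungs 23 of 24 were lower as well, with a median of -0.45, and the interaction called 0 of 24 genes without array 1. The part of RNA quality in this group was not tested beyond these fits.

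Tek, the angiopoietin receptor, read 443, 2179 and 2060.1 in SpV and 746, 816 and 547 in HVT lungs and fell by 1.59 ± 0.23 without array 1 (adjusted p = 0.00348; -0.85 ± 0.47 with it). Flt1, a VEGF receptor, fell by 1.44 ± 0.20 (adjusted p = 0.00321; -0.82 with array 1) and Acvrl1, the BMP receptor ALK1, fell by 1.35 ± 0.22 (adjusted p = 0.00638; -0.74 with array 1), with the same order of arrays. The other 2 probe sets of Flt1 stood at -0.60 and -0.32 without array 1. Angpt1, the ligand of Tek, was near the floor in HVT lungs at 8.83, 11.9 and 12.2 against 12.8, 138 and 121 in SpV lungs, and fell by 2.44 ± 0.66 (adjusted p = 0.0473). Klf2, a flow-responsive transcription factor of endothelium kept here among the immediate early genes, was apart at 717, 1983 and 1473 against 569, 586 and 674 and fell by 1.47 ± 0.37 (adjusted p = 0.0356; -1.06 ± 0.41 with array 1).

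Some vascular genes outside the list were called with either covariate as well, and were picked after their values were seen. Smad6, the inhibitory SMAD of BMP signalling, read 475, 1941 and 1362 in SpV and 344, 394 and 388 in HVT lungs. The HVT arrays were even and all below the degraded array. The difference was -1.49 ± 0.39 with all arrays and -2.08 ± 0.24 without array 1 (adjusted p = 0.00181), and -1.46 and -1.31 with the actin ratio and brightness (adjusted p = 0.0139 and 0.0355). In wild-type lungs Smad6 differed by -0.98 ± 0.39 with all arrays and -0.98 ± 0.21 without array 1, and passed in neither fit. Gja4, the arterial connexin 37, was apart at 367, 1047 and 1038 against 224, 269 and 273, a difference of -1.48 ± 0.34 with all arrays and -1.98 ± 0.22 without array 1 (adjusted p = 0.00181). In wild-type lungs Gja4 was also lower and apart, at -1.21 ± 0.34 with all arrays. Without array 1 it was -1.22 ± 0.20 there and was called (limma adjusted p = 0.0202). Its interaction was not called (limma adjusted p = 0.266 without array 1). Clec14a, an endothelial lectin, read 384, 2194 and 1658 and 329.6, 436 and 403, overlapping through array 1, and fell by 2.26 ± 0.22 (adjusted p = 9.06e-04; -1.50 with array 1), but its other probe set stood at 0.39.

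A few genes by which capillaries hold the clotting balance and vascular tone were lower. Over all genes 4.23% fell. Of 13 coagulation and fibrinolysis genes 2 fell (15.4%) and 0 rose (medians -0.15 and -0.21). They were Thbd, the thrombomodulin that turns thrombin anticoagulant, at 540.2, 3755 and 4123 in SpV and 1107, 1196 and 1189 in HVT lungs (-1.74 ± 0.29, adjusted p = 0.00727; -0.80 with array 1), and Plat, the tissue plasminogen activator (-1.17 ± 0.23, adjusted p = 0.0130; -0.70 with array 1). Of 19 stretch-linked growth factors and vasoactive genes 4 fell and 0 rose, and the median was 0.11 with and -0.43 without array 1. Ece1, which makes active endothelin, was apart at 1137, 2436 and 2072 against 1037, 842 and 887 and fell by 1.28 ± 0.25 (adjusted p = 0.0135). Adm, the vasodilator adrenomedullin, fell by 2.22 ± 0.50 (adjusted p = 0.0228; -1.42 with array 1) and Tgfb1 fell by 1.25 ± 0.27 (adjusted p = 0.0195; -0.82 with array 1), both overlapping through array 1.

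In the alveolar epithelium, markers of the flat type I cells were lower. Of 13 type I markers 8 fell (61.5%, against 4.23% of all genes) and 0 rose, with medians of -0.45 and -0.79, and 1 was apart. Ager, the receptor RAGE and a hallmark of these cells, read 1372, 7306 and 6158 in SpV and 2060.1, 1785 and 2666 in HVT lungs. SpV arrays 2 and 3 were high and array 1 was the lowest of the 6, and Ager fell only without it (-1.61 ± 0.23, adjusted p = 0.00354; -0.88 ± 0.48 with it). Cav1, which shapes caveolae in type I and endothelial cells, read 2773, 11301 and 9424 and 5059, 4863 and 4872 and fell by 1.01 ± 0.13 (adjusted p = 0.00251; -0.43 with array 1); the tight junction gene Cldn18 fell by 1.42 ± 0.25 (adjusted p = 0.00894; -0.45 with array 1). Aqp5, the apical water channel, was the member that was apart, at 2432, 2952 and 2462 against 1971, 1409 and 1438, and fell by 0.76 ± 0.20 (adjusted p = 0.0461; -0.71 ± 0.19 with array 1).

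Of 18 type II and surfactant genes 4 fell, Cebpa among them, and 0 rose (medians -0.12 and -0.26). Napsa, a protease that matures surfactant protein B, fell by 1.18 ± 0.26 (adjusted p = 0.0227; -0.41 with array 1). Slc34a2, the type II phosphate carrier, fell by 0.64 ± 0.13 without array 1 (adjusted p = 0.0172) but stood at -0.056 ± 0.39 with it, a value that was positive under trimmed mean scaling, equal medians and cyclic loess. The 14 club and ciliated cell markers had 0 calls and medians of 0.081 and 0.15; Muc5b and Gabrp, those with the smallest p, differed by 0.59 ± 0.29 and 0.42 ± 0.23 with all arrays. Among 17 genes of alveolar sodium, chloride and water transport 2 fell and 1 rose (medians 0.076 and 0.19). Aqp1, the endothelial water channel, fell by 1.30 ± 0.30 (adjusted p = 0.0264). Atp1b1, a subunit of the sodium pump that drives clearance of alveolar fluid, read 6802, 5722 and 6926 in SpV and 10893, 10326 and 12495 in HVT lungs. Its groups were apart with even values in each, it rose by 0.77 ± 0.15 (adjusted p = 0.0135; 0.79 ± 0.15 with array 1), and it was called with either covariate. Of 19 junction, keratin and cytolinker genes 1 fell (Cldn18) and 1 rose, the E-cadherin gene Cdh1 (0.57 ± 0.15, adjusted p = 0.0408; 0.33 with array 1); the medians were 0.16 and 0.27.

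Stromal and blood cell lists completed the falls. Of 18 fibroblast and mesothelial markers 4 fell and 0 rose (medians -0.097 and -0.42). Inmt, a methyltransferase abundant in lung, was apart at 8497, 13674 and 13264 against 8059, 6227 and 7728 and fell by 0.81 ± 0.12 (adjusted p = 0.00354), while Mfap4, an elastic fibre protein, had the widest spread at 67.1, 2027 and 1758 against 241, 181 and 143 (-3.26 ± 0.71, adjusted p = 0.0204; -1.74 with array 1). Tcf21, a transcription factor of lung fibroblasts, fell by 1.63 ± 0.29 (adjusted p = 0.0101; -0.91 with array 1). Of 15 smooth muscle markers 2 fell, Itga8 (-1.95 ± 0.26, adjusted p = 0.00251; -1.03 with array 1) and the myosin kinase gene Mylk (-0.61 ± 0.16, adjusted p = 0.0420), 0 rose, and the medians were 0.012 and -0.031. Of 7 red cell genes all 7 were lower with all arrays (median -0.37; -0.57 without array 1) and 3 fell. Slc4a1, the band 3 anion exchanger of red cells, read 524, 662 and 241 and 137, 136 and 147, apart, and fell by 1.43 ± 0.37 (adjusted p = 0.0409). Car2, a carbonic anhydrase, fell by 1.59 ± 0.27 and Alas2, which starts haem synthesis in red cells, fell by 1.09 ± 0.28 (adjusted p = 0.00838 and 0.0412; -1.06 and -0.53 with array 1). All 7 were lower in ventilated wild-type lungs too (median -0.73). Of 11 platelet genes 0 were called (medians 0.23 and 0.059), with Gp1bb at -0.65 ± 0.25 and Itga2b at -0.55 ± 0.26.

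**Figure D3:**
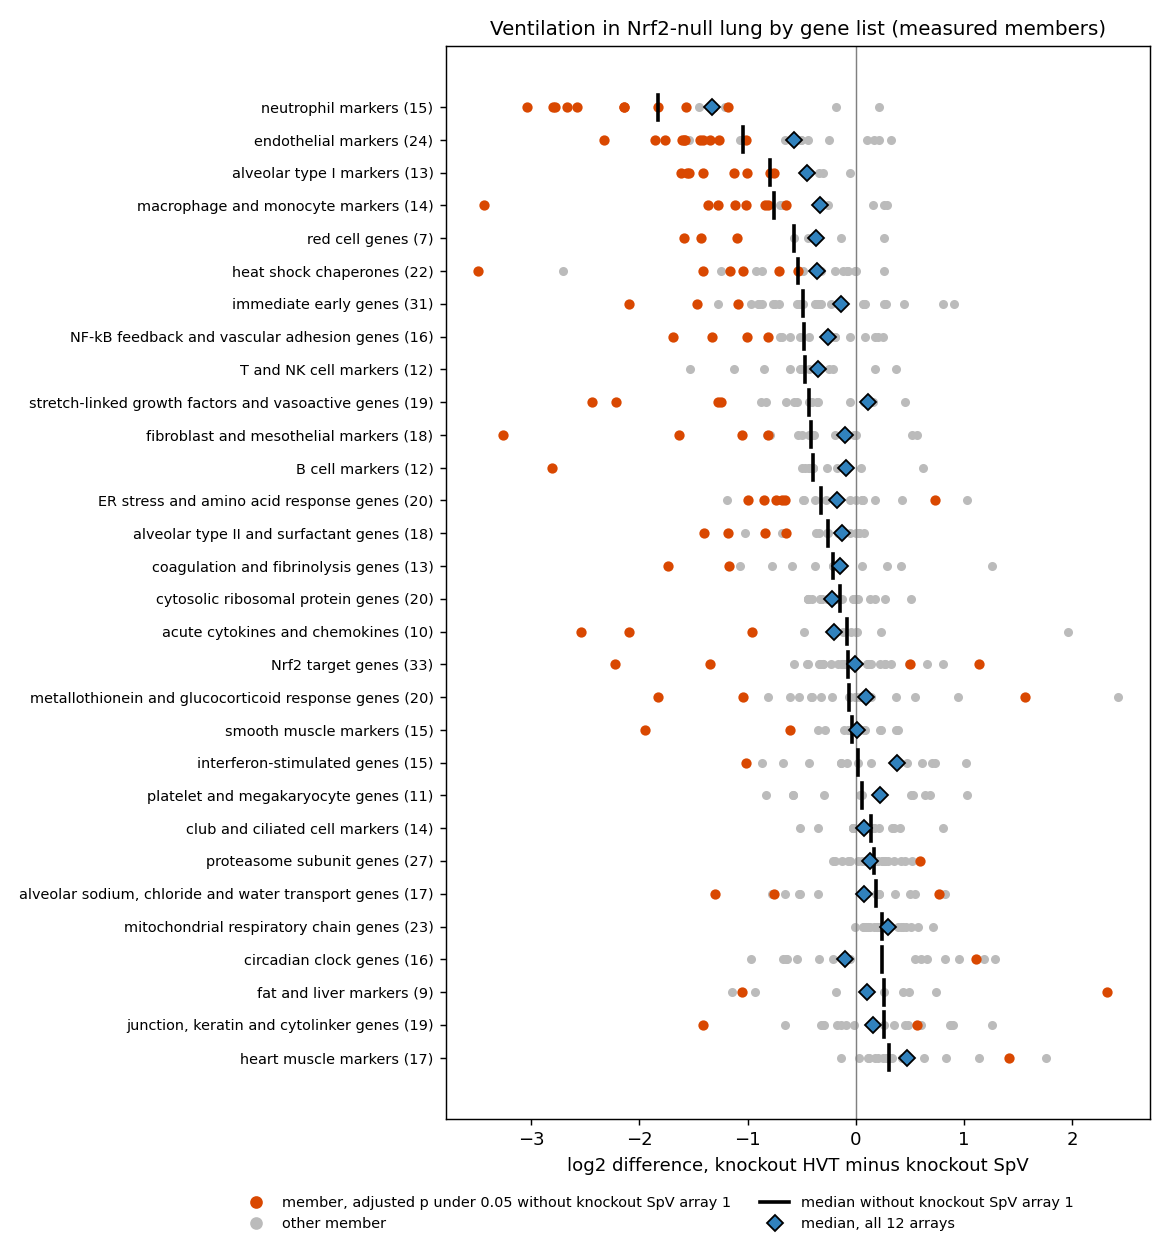
Each grey or orange point is the log2 difference (HVT minus SpV, knockout arrays without SpV array 1) of 1 measured member of the list named on the left, orange where it passed an adjusted p under 0.05; bars are list medians in that fit and diamonds the medians with all 12 arrays. Neutrophil markers have the lowest median in either fit, and for the 5 lists at the top of the plot the diamond lies closer to 0 than the bar.

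Rises were fewer, and 54 of the 204 were apart. Pdk4, a kinase that shuts pyruvate out of the citric acid cycle and answers to glucocorticoids and fasting, read 135, 569 and 1079 in SpV and 2261, 4624 and 1249 in HVT lungs. All HVT arrays were above all SpV arrays, though HVT array 3 only just passed SpV array 3. The difference was 2.37 ± 0.60 with all arrays and 1.57 ± 0.42 without array 1 (adjusted p = 0.0470), and it was 2.42 and 2.63 with the actin ratio and brightness (adjusted p = 0.0129 and 0.0277). In wild-type lungs Pdk4 differed by 1.57 ± 0.60 in the fit with all arrays (limma adjusted p = 0.504), where no gene passed in knockout lung either.

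Ttpa, the transfer protein for the antioxidant alpha-tocopherol, read 684, 192 and 332 in SpV and 1167, 1895 and 1044 in HVT lungs. The groups were apart, with array 1 the highest of the controls. It rose by 2.33 ± 0.27 (limma adjusted p = 0.00181), in all 11 further leave-outs, and was called with either covariate. With array 1 the difference was 1.85 ± 0.35. The wild-type difference was 1.67 ± 0.35 in the fit with all arrays (limma adjusted p = 0.176). In that fit no gene passed in knockout lung either. Zfp503, a zinc finger repressor, read 214, 864 and 573 against even HVT values of 1515, 1509 and 1378 and rose by 1.04 ± 0.23 (adjusted p = 0.0204; 1.59 ± 0.37 with array 1). Its wild-type arrays read from 826 to 1521.

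The other large rises that were apart included weak signals. Kcna7, a potassium channel, went from 28.6, 14.0 and 42.5 to 180.4, 499 and 102, Pibf1, a centrosomal protein, from 52.2, 13.6 and 21.6 to 158, 121 and 189.5 and Gcc2, a golgin, from 48.4, 27.7 and 34.3 to 130.2, 125 and 170.0. They rose by 2.46 ± 0.67, 2.35 ± 0.45 and 1.75 ± 0.37 (adjusted p = 0.0468, 0.0126 and 0.0174), and their SpV signals of under 60 leave the size of the fold poorly set. Bex1, a small brain-expressed adaptor, read 444, 222 and 137 and 522, 984 and 544 and rose by 1.83 ± 0.29 (adjusted p = 0.00638). Elf2, an ETS factor, rose by 1.82 ± 0.40 (adjusted p = 0.0210), but its other measured probe set had the opposite sign. Endod1, which read 795, 773 and 775 and 1402, 1973 and 2440.2, rose by 1.27 ± 0.34 (adjusted p = 0.0468), while its other 3 probe sets stood at 0.29, 0.51 and 0.36.

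Of the genes called with both covariates, picked after their values were seen, 4 more rose. Gsto1, an omega-class glutathione transferase, read 1941, 2482 and 3771 in SpV and 6048, 5068 and 6507 in HVT lungs and rose by 0.91 ± 0.22 (adjusted p = 0.0299; 1.15 ± 0.24 with array 1). The other probe set of Gsto1 stood at 0.41 without array 1 and 0.23 with it. Cavin2, a coat protein of caveolae, read 5176, 7261 and 6938 and 9078, 9424 and 11263 and rose by 0.44 ± 0.11 (adjusted p = 0.0378). Its other probe set stood at -0.14 without array 1. Cav1, the core protein of the same membrane pits, fell. Polr3a, the largest subunit of RNA polymerase III, went from 410.0, 394 and 405 to 736, 593 and 679 (0.72 ± 0.15, adjusted p = 0.0164; -0.14 for its other probe set), and Nes, the filament nestin, read 1614, 212 and 281 and 1004, 1079 and 1463, overlapping through array 1 (2.20 ± 0.31, adjusted p = 0.00328; 1.30 with array 1), but its other probe set stood at -0.37. Among the falls of that kind, G0s2, which restrains the lipase ATGL, read 363, 473 and 303 and 150.1, 168 and 155 (-1.20 ± 0.24, adjusted p = 0.0150), Lxn, a carboxypeptidase inhibitor, 415, 800.0 and 579 and 225, 261 and 247 (-1.43 ± 0.24, adjusted p = 0.00706), and the adhesion receptor Adgra3 723, 831 and 794 and 477, 434 and 423 (-0.85 ± 0.16, adjusted p = 0.0130). Pla2g1b, a secreted phospholipase, and Klra17, of the Ly49 receptor family, completed them with -0.83 ± 0.19 and -1.42 ± 0.21 (adjusted p = 0.0269 and 0.00464). The other probe set of Pla2g1b stood at -0.25 without array 1 and at 0.21 with it.

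Further falls that were apart were of weak signals, with HVT arrays under 50. They were Ear3, of a ribonuclease family with close paralogs that may share its probes (103, 114 and 264 against 24.2, 19.3 and 14.2; -2.46 ± 0.47, adjusted p = 0.0128), the niacin receptor Hcar2 (47.1, 381 and 214 against 42.6, 18.6 and 27.7; -2.78 ± 0.71, adjusted p = 0.0405) and the hydrolase Abhd8 (101, 113 and 108 against 39.0, 34.1 and 7.49; -1.66 ± 0.41, adjusted p = 0.0340). A pair of large differences was not called in either fit. Ptgs2, the inducible cyclooxygenase COX-2, went from 167, 587 and 536 to 1235, 2215 and 4082, apart, with a difference of 2.52 ± 0.63 with all arrays (adjusted p = 0.226) and 1.97 ± 0.60 without array 1 (adjusted p = 0.0696). Zbtb16, a glucocorticoid-induced zinc finger factor, went from 519, 418 and 1141 to 3888, 4594 and 3105, apart as well, with 2.57 ± 0.75 and 2.43 ± 0.83 (adjusted p = 0.299 and 0.0975). Zbtb16 was uneven on the wild-type arrays too, at 3428, 2260.4 and 1221 in SpV and 554, 6352 and 6069 in HVT lungs. Ptgs2 went from 131, 672 and 295 to 2735, 1225 and 3560 in wild-type lungs, also apart. Its wild-type difference was 2.87 ± 0.63 with all arrays (limma adjusted p = 0.176). Without knockout SpV array 1 it was 2.88 ± 0.54 and was called (limma adjusted p = 0.0437). The interaction of Ptgs2 was -0.35 with array 1 and -0.91 without it, and was not called.

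Heart muscle genes read higher on the HVT arrays. All 17 heart muscle markers were higher with all arrays, and the medians were 0.47 and 0.31. Of these, 9 were apart, where 6.76% of all genes were apart with HVT higher. Only 1 rose (5.88%, against 2.19% of all genes), Ttn, the giant titin of the sarcomere. Ttn read 3517, 2297 and 2557 in SpV and 4943, 10546 and 5664 in HVT lungs and rose by 1.42 ± 0.30 (adjusted p = 0.0174; 1.27 ± 0.30 with array 1). The atrial myosin light chain Myl7, present in the walls of mouse pulmonary veins, read 7839, 7682 and 7958 and 12258, 10893 and 10072, apart, at 0.46 ± 0.14, which did not pass (adjusted p = 0.0690). The summed signal of the list ranged from 61429 to 71751 on the knockout SpV arrays, from 76650 to 108744 on the HVT arrays and from 34334 to 55300 in wild-type lungs, and no member was at 0 on any array. HVT array 2 stood out: its Ckm, muscle creatine kinase, was 12551 against 1286 to 1560 on the other 5 knockout arrays. It also had the most fat transcript, with Adipoq, adiponectin, at 1139 against 22.4 to 431 on the other 5 and Fabp4 at 6406 against 242 to 1947. How far neighbouring tissue on this array bears on the rises was not tested. The fat and liver list as a whole had 1 rise (Ttpa) and 1 fall (Apoc1, -1.06 ± 0.28, adjusted p = 0.0460; -0.43 with array 1) of 9 members, with medians of 0.10 and 0.26.

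HVT array 2 also stood out for respiratory chain genes. All 23 respiratory chain genes were higher with all arrays (medians 0.30 and 0.24) and 0 were called, but their mean log2 signal was -0.069, -0.043 and -0.021 on SpV and 0.093, 0.66 and -0.01 on HVT arrays, so only HVT array 2 was clearly high. Uqcrfs1 and Cycs, those with the smallest p, differed by 0.48 ± 0.19 and 0.46 ± 0.19. Of 27 proteasome subunit genes 24 were higher with all arrays and 1 rose, Psma7 (0.59 ± 0.16, adjusted p = 0.0468; medians 0.13 and 0.17). Of 20 cytosolic ribosomal protein genes 15 were lower with all arrays and 0 were called (medians -0.22 and -0.15). Of the 20, 9 were apart with HVT lower (7.53% of all genes) and 2 with HVT higher (6.76% of all genes). Rpl6 and Rpl19 differed by -0.38 ± 0.11 and -0.41 ± 0.12. Of 16 circadian clock genes 1 rose, the period gene Per2, from 644, 363 and 388 to 1090.0, 556 and 921 (1.11 ± 0.28, adjusted p = 0.0400; medians -0.10 and 0.25). Of 15 interferon-stimulated genes 1 fell, the immunoproteasome gene Psmb8 (-1.01 ± 0.27, adjusted p = 0.0423; -0.54 with array 1), and 0 rose (medians 0.38 and 0.022); their mean log2 signal was -0.62, 0.29 and 0.22 on SpV and -0.03, -0.41 and 1.37 on HVT arrays, so that HVT array 3 alone was high.

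**Figure D4:**
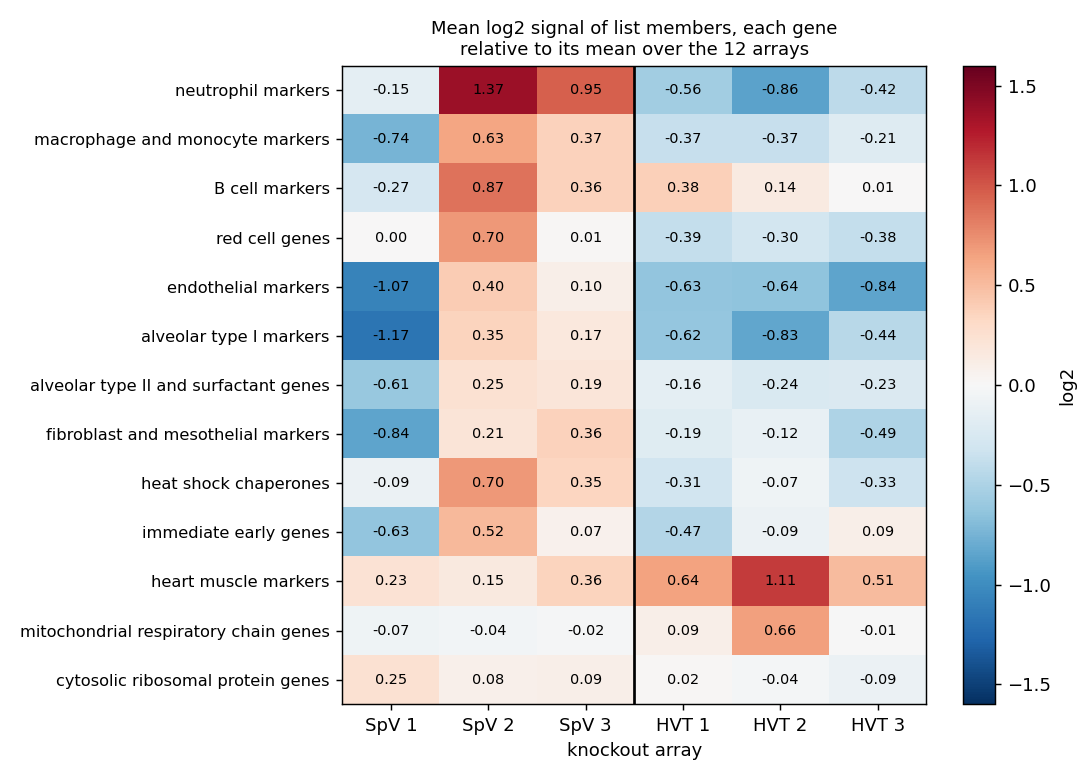
Mean log2 signal of the members of 13 lists on the 6 knockout arrays, each gene set against its own mean over the 12 arrays; red is higher and blue lower, and the line parts SpV from HVT arrays. Neutrophil markers stand at 1.37 and 0.95 on SpV arrays 2 and 3 and below 0 elsewhere, endothelial and type I markers are lowest on SpV array 1, and heart muscle and respiratory chain genes are highest on HVT array 2.

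Genes that Nrf2 is known to drive had no common direction in knockout lung. Of 33 measured targets 16 were higher and 17 lower with all arrays, with medians of -0.0056 and -0.067, and 2 rose and 2 fell. In wild-type lungs 26 of the 33 were higher, with a median of 0.22. The mean log2 signal of the list was -0.34, -0.41 and -0.41 on knockout SpV and -0.37, -0.51 and -0.49 on knockout HVT arrays, and between 0.24 and 0.70 on every wild-type array. Hmox1, the haem oxygenase, read 27.5, 319.8 and 195 in SpV and 80.0, 83.0 and 109 in HVT lungs, and 166, 270.1 and 249.9 and 473, 325 and 566 in the wild type. It fell in knockout lung without array 1 (-1.34 ± 0.29, adjusted p = 0.0195; -0.46 ± 0.56 with it), and its interaction was -2.29 ± 0.39 without array 1 (adjusted p = 0.0286; -1.39 with it).

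The interaction was also called without array 1 for Gclc, the catalytic subunit of glutathione synthesis (-1.32 ± 0.23, adjusted p = 0.0292; -1.06 with array 1), and Srxn1, the sulfiredoxin that repairs peroxiredoxins (-1.41 ± 0.29, adjusted p = 0.0438; -1.28 with array 1). Gclc read 1886, 3488 and 3353 in knockout SpV and 2824, 2285 and 2429 in knockout HVT lungs, and 4208, 3529.9 and 2728 and 6952, 5825 and 6483 in the wild type. Srxn1 stayed between 149 and 221 on the knockout arrays and went from 315, 389 and 356 to 966, 606 and 916 in the wild type. Blvrb, a biliverdin reductase, read 25.7, 165 and 155 and 57.7, 9.05 and 13.7 and fell by 2.22 ± 0.40 (adjusted p = 0.0102; -1.52 with array 1); 2 of its HVT signals lie under the 16 units added before taking logs, which leaves the size of the fold poorly set. Gsta2, an alpha-class glutathione transferase, read 1606, 348 and 411 and 1036, 743 and 803 and rose by 1.14 ± 0.25 (adjusted p = 0.020), as did Mgst1, a membrane-bound one, by 0.50 ± 0.11 (adjusted p = 0.0213); on both, array 1 was the highest control, and with it the differences were 0.46 ± 0.45 and 0.33 ± 0.17. Nqo1, a classical target, was weak in knockout lung at 153, 69.4 and 89.6 and 49.9, 87.7 and 80.6 (-0.13 ± 0.25, and -0.40 with array 1, which did not pass).

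Immediate early genes, transcribed within minutes of stretch or growth signals, were higher after ventilation in wild-type lungs and had no such common direction in knockout lungs. All 31 measured members were higher after ventilation in wild-type lungs (median 0.91). In knockout lungs 10 of 31 were higher with all arrays, 0 rose and 3 fell, and the medians were -0.14 and -0.49. The interaction without array 1 was called for 10 of the 31, all lower in knockout, where 0.889% of all genes were called in either direction. The mean log2 signal of the list was -0.63, 0.52 and 0.068 on the knockout SpV arrays and -0.47, -0.093 and 0.09 on the HVT arrays, against -0.47, -0.53 and -0.36 and 1.13, 0.20 and 0.55 in the wild type. Knockout controls 2 and 3 were therefore already above the wild-type controls, and all 3 ventilated knockout lungs lay below all 3 ventilated wild-type lungs.

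Fos, a subunit of AP-1, read 1679, 5139.6 and 2113 in knockout SpV and 1244, 1645 and 2592 in knockout HVT lungs, which overlap. In the wild type it went from 903, 979 and 778 to 5934, 4877 and 3771, apart. The knockout difference was -0.59 ± 0.37 with all arrays and -0.91 ± 0.35 without array 1, and the interaction was -3.01 ± 0.52 (unadjusted p = 7.10e-05; adjusted p = 0.221) and -3.31 ± 0.46 (adjusted p = 0.0145). Egr2, a zinc finger factor, read 65.8, 849.7 and 513 and 83.9, 154 and 228 in knockout lungs and fell without array 1 (-2.09 ± 0.58, adjusted p = 0.0497; -1.06 with array 1), and Dusp6, a phosphatase that turns off ERK, fell by 1.09 ± 0.18 (adjusted p = 0.00698; -0.39 with array 1). Maff, a small MAF partner of Nrf2, was higher in knockout HVT lungs at 518, 585 and 759 against 391, 447 and 447, apart, but the difference of 0.50 ± 0.22 did not pass. It was smaller than the wild-type difference of 2.44 ± 0.22 (adjusted p = 8.91e-04), by an interaction of -2.01 ± 0.33 without array 1 (adjusted p = 0.0227; -1.94 with it).

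Metallothioneins showed a like contrast. Mt1 read 3631, 5715 and 6771 in knockout SpV and 5188, 5198 and 5510.0 in knockout HVT lungs, and 1592, 1526 and 1043 and 8517, 4708 and 6926 in the wild type. All 6 knockout arrays were thus above every wild-type control, and ventilation made no difference past the test in knockout lung: 0.027 ± 0.25 with all arrays, a sign that turned without scaling, and -0.22 ± 0.22 without array 1. At rest Mt1 was higher in knockout than in wild-type lung by 1.92 ± 0.25 with all arrays (adjusted p = 0.00584) and by 2.15 ± 0.22 without array 1 (adjusted p = 4.72e-04). The interaction was -2.22 ± 0.36 (adjusted p = 0.201) and -2.44 ± 0.30 (adjusted p = 0.0132). Mt2, its neighbour and paralog, read 2881, 7384 and 10115 and 9170.2, 7638 and 9128 in knockout lungs, with an interaction of -2.09 ± 0.29 without array 1 (adjusted p = 0.0145; -1.61 with it). Over the 20 metallothionein and glucocorticoid response genes the knockout medians were 0.097 and -0.058 and the wild-type median 0.60. Here 1 rose (Pdk4), 2 fell (Plin2, a lipid droplet coat, -1.04 ± 0.15, and Lcn2, a siderophore-binding protein, -1.83 ± 0.27; adjusted p = 0.00363 and 0.00422; -0.57 and -0.87 with array 1) and 5 had a called interaction (Mt1, Mt2, Noct, Cebpd and Lcn2). The knockout difference of Cebpd had opposite signs on its probe sets, -0.60 on the one used and 0.54 on the other without array 1.

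**Figure D5:**
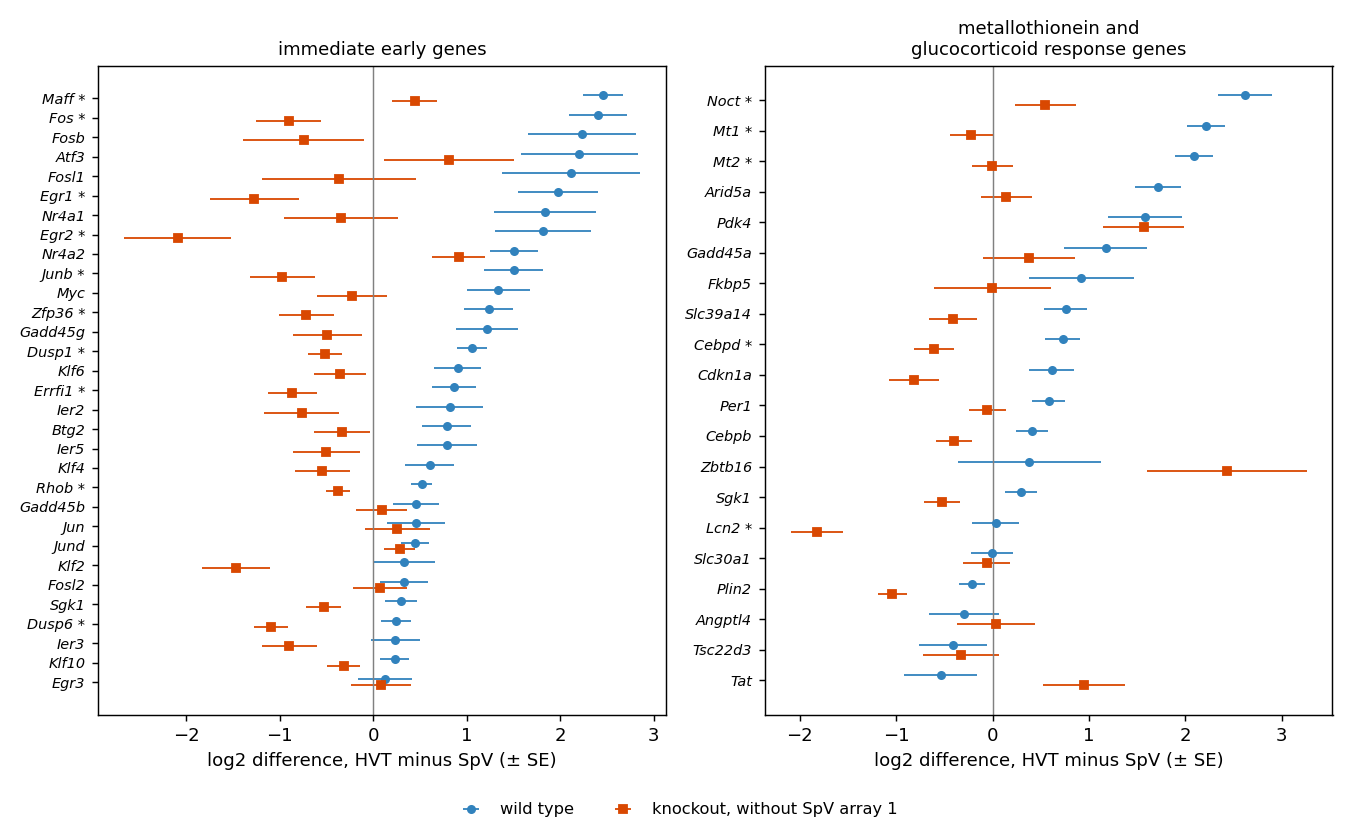
Log2 difference (HVT minus SpV ± SE) of every measured immediate early gene (left) and metallothionein or glucocorticoid response gene (right) in wild-type lung (circles, 3 against 3 arrays) and knockout lung without SpV array 1 (squares, 3 against 2), sorted by the wild-type value; an asterisk marks an interaction with adjusted p under 0.05. Mt1 stands at 2.22 in wild-type and -0.22 in knockout lung, and Pdk4 at 1.58 and 1.57.

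Without knockout SpV array 1, the fit behind the knockout calls, ventilation called 44 genes in wild-type lung (0.471% of genes). With all arrays it called 7 (0.075%). Besides Fos, Maff and Mt1 they were Noct, a rhythmic phosphatase (1.03 ± 0.39 in knockout and 2.60 ± 0.39 in wild type), Arid5a, an RNA-binding protein of Il6 mRNA (0.17 ± 0.24, a sign that turned without scaling, and 1.70 ± 0.24), Bmx, a tyrosine kinase of arterial endothelium (-0.17 ± 0.16 and 1.05 ± 0.16), and Eppk1, a keratin cytolinker (0.81 ± 0.25 and 1.61 ± 0.25). Eppk1 was apart in knockout lung, at 1230.0, 965 and 1167 against 1549, 1936 and 2537, and its interaction of -0.74 ± 0.36 was not called. The interaction without array 1 was called for Noct (-2.07 ± 0.42, and -1.58 with it) and Bmx (-1.21 ± 0.23 and -1.22; adjusted p = 0.0438 and 0.0341 without it) and not for Arid5a (-1.57 ± 0.36, adjusted p = 0.0722). Pfkfb3, which sets the pace of glycolysis, had one of the 5 smallest interaction p-values: it read 287, 1084 and 1234 and 555, 453 and 499.7 in knockout and 467, 709 and 481 and 869, 1131 and 910.2 in wild-type lungs, fell by 1.19 ± 0.20 in knockout lung without array 1 (adjusted p = 0.00727; -0.53 with it), and had an interaction of -2.0 ± 0.27 without array 1 (adjusted p = 0.0132; -1.34 with it).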

How the data were processed

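The values are deposited probe set signals, an intensity unit on a linear scale, made by the authors with the Affymetrix software GCOS 1.4, per the submitters' processing notes. The design text names a scaling to 500, which the deposited values do not show, as their trimmed means differ. Each array was therefore rescaled to a trimmed mean of 500 (2% cut at each end), quantile normalized and taken as log2(signal + 16), which understates changes of weak signals. Of the probe sets, 20380 named 1 gene, 691 several and 1555 none; 64 controls were left out. Genes needed a scaled signal of at least 100 on 3 arrays, and the probe set with the highest mean stood for the gene (14554 probe sets, 9333 genes). The small number of arrays limits the precision. The median SE of the knockout ventilation difference was 0.232 with 12 arrays and 0.214 with 11, lower although an array was left out.

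Group means of 4 groups were fitted with limma 3.58.1 in R 4.3.3 (eBayes with an intensity trend, two-sided, Benjamini-Hochberg over all genes), on 12 arrays and again, renormalized, on 11. The fit was tested on simulated data. Figures were drawn with matplotlib 3.10.9. Alternatives were other scalings, pseudocounts, filters and probe set rules, array weights, quality covariates, a replicate block and leaving out arrays. Replicate numbers were checked and were not taken to pair the arrays, though same-numbered arrays outside the knockout HVT group correlated at 0.0023 to 0.39. The arrays compared and the 30 lists were chosen with earlier results of these data known, and the motif TTCNNGAA was added after seeing the data.

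Named genes were Nfe2l2; the 10 largest rises and 12 largest falls with all arrays, among genes that were called without SpV array 1 and apart; from each list up to 3 members called there, or the 2 with the smallest p; the 5 smallest p of the interaction; the genes called in wild type; and genes with a printed promoter. The genes called in wild type were those of the fit with all arrays. Any other name was chosen after its values were seen.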

Additional observations from a re-analysis of the deposited data

Results flagged for a closer look

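Groups of 3 arrays are too small for a search for outlying samples. The 36 named genes below stood out because the response to ventilation differed between knockout and wild-type lungs by the interaction term of the limma fit without knockout SpV array 1 (adjusted p under 0.05). Each value is the knockout difference minus the wild-type difference on the log2 scale. With all arrays the interaction called 0 genes. All 36 kept their sign there and 22 had an unadjusted p under 0.05. The parts of brightness and RNA integrity, which moved with the knockout groups, were not tested for these genes beyond the covariate fits, which called 1 interaction with all arrays and 0 (actin ratio) and 3 (brightness) without array 1.

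Among early response and metallothionein genes the interaction was -3.31 for Fos, -3.91 for Egr2, -2.01 for Maff, -1.33 for Dusp6, -2.44 for Mt1, -2.09 for Mt2, -2.07 for Noct and -1.33 for Cebpd. The knockout difference of Cebpd was -0.60 without array 1, but its other probe set had the opposite sign there (0.54). Among genes of oxidant defence it was -2.29 for Hmox1, -1.32 for Gclc and -1.41 for Srxn1. Of the neutrophil and macrophage genes, Mmp8 stood at -3.00, S100a8 at -2.73, Clec4d at -3.16, Csf3r at -2.18, Lcn2 at -1.86, Itgax at -1.64 and Cd14 at -1.35.

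Cytokine and NF-kB genes followed, with -4.18 for Cxcl1, -2.19 for Bcl3, -1.69 for Nfkbiz and -2.10 for Tnfaip2. Genes of clotting, the vessel wall and vasoactive signals gave -1.74 for Plat, -1.65 for Plaur, -3.07 for Thbs1, -1.73 for Ptger4, -1.21 for Bmx and -0.93 for Cav1. The antibody genes Jchain and Igha had -2.73 and -3.03, Pfkfb3 had -2.0 and Klra17 had -1.59. Dnajb4, of the heat shock chaperone list, had -1.11, and Edem1, of the ER stress list, had -1.03. A positive interaction was called for Hyou1 at 1.28 and Nes at 2.01. The knockout difference on their other probe sets was not a rise, at -0.03 for Hyou1 and -0.37 for Nes without array 1.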

How the results depend on the processing

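Array handling set the number of calls. For ventilation in knockout lung with all arrays, 0 calls became 1114 with array weights (470 higher, 644 lower; knockout SpV array 1 had a weight of 0.133), 54 with the actin ratio and 34 with brightness as covariate, and ranged from 0 to 599 as each array was left out in turn (3 without HVT array 1). Other settings with all arrays left 0. Without SpV array 1, 599 became 7223 with no scaling (11 higher, 7212 lower), 901 with every probe set on its own, 1347 with array weights, 0 with either covariate, and 21 to 779 in further leave-outs; other settings gave 400 to 708. The interaction with all arrays went from 0 to 92 (array weights), 1 (actin ratio), 1 (brightness) and 0 to 83 in leave-outs. Without SpV array 1 its 83 became 5266 with no scaling (6 higher, 5260 lower), 33 with no filter, 190 with array weights, 0 with the actin ratio, 3 with brightness, 21 with no intensity trend and 10 to 88 in leave-outs, with 22, 45 and 32 without wild-type SpV arrays 1, 2 and 3, 33 when wild-type HVT array 3 was left out, 10 and 16 without knockout SpV arrays 2 and 3, and 36, 18 and 49 without knockout HVT arrays 1, 2 and 3. The cause of these shifts was not tested.

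Replicate numbers were not taken to pair the arrays: the deviations of same-numbered knockout arrays correlated at -0.12 to 0.084, and over all groups 6 of 18 same-numbered pairs were over 0.1 (-0.17 to 0.39). All of these 6 lay outside the knockout HVT group, where same-numbered pairs ran from 0.0023 to 0.39. Differently numbered pairs there ran from -0.40 to 0.30, so a partial pairing of those arrays is not excluded. The fit with replicate number as a block gave 0 calls for knockout ventilation and 0 for the interaction with all arrays, and 400 and 54 without SpV array 1.

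With all arrays, some differences changed sign. Mrc1 was -0.0014 with trimmed mean scaling, -0.026 with equal medians, -0.43 unscaled and -0.72 with weights, and -0.81 to 0.57 in leave-outs. Slc34a2 was 0.23 with trimmed mean scaling, 0.21 with equal medians, 0.13 with loess and 0.13 with brightness, and -0.64 to 0.27 in leave-outs. Mt1 was -0.12 unscaled, -0.0083 for the mean of probe sets and -0.25 with weights, and -0.22 to 0.22 in leave-outs. Mt2 was -0.022 with weights and -0.0017 to 0.91 in leave-outs. Nfe2l2 was -0.031 unscaled and -0.043 to 0.23 in leave-outs, and Arid5a was -0.15 unscaled. In leave-outs Hmox1 ranged from -1.34 to 0.15, Dusp6 from -1.09 to 0.055, Cxcl1 from -2.54 to 0.38, Icam1 from -1.01 to 0.20, Alas2 from -1.09 to 0.081, Cldn18 from -1.42 to 0.13, Napsa from -1.18 to 0.0045 and Apoc1 from -1.06 to 0.033. Since 0 genes were called with all arrays, whether the other comparisons of named genes kept their side of the threshold says nothing about stability. Of list medians 783 moved by less than the spread and 27 by more. Of the 74 named genes called without SpV array 1, 6 were called in all 11 further leave-outs (Ttpa, S100a8, Jchain, Itgax, Mmp8 and Itga8) and 7 without SpV array 2.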

Other observations

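Ifit1, an antiviral RNA-binding protein of the interferon list, read 130.3, 558 and 387 on the knockout SpV arrays and 361, 232 and 1586 on the HVT arrays, so that HVT array 3 was the highest of the 6. The difference was 0.14 ± 0.58 without SpV array 1 and was not called (limma adjusted p = 0.906). No label tells HVT array 3 from the other arrays of its group. The gene was chosen after its values were seen.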
